A study of Homo sapiens with 48 samples.

Results

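The genes described here encode the NF-κB transcription factor subunits NFKB1, NFKB2, RELA and RELB and proteins grouped with them as feedback inhibitors. The latter are NFKBIA, NFKBIZ, TNFAIP3, TNIP1, BIRC3 and IER3. Of these, NFKBIZ is also needed for a late set of inflammatory genes, and BIRC3 is also a ubiquitin ligase of the TNF receptor complex. The list holds 10 genes out of 29744 in the table. They were chosen by name for their roles, with earlier results of these data known. RNA sequencing was carried out on 48 libraries of an immortalized human skin fibroblast line (CRL-4001) that carries an mNeonGreen reporter of IL-11, inserted by editing before clones were sorted. In the CRISPRko arm the cells carried Cas9 with a guide RNA that has no target (H47_Ctrl) or with a guide against the transcription factor GLIS3 (H47_KO). In the CRISPRa arm they carried dCas9-VP64, a Cas9 that does not cut and is fused to an activation domain, with a guide that has no target (VP64_Ctrl) or with a guide for GLIS3 (VP64_A). Cells received TGFβ and IL-1β together at 10 ng/ml each for 6, 12 or 24 h or were left untreated (0 h), with 3 libraries in each of the 16 conditions. The guide-carrying cells were antibiotic-selected bulk populations and not clones, and no group received either cytokine alone. The cytokines were added in reverse order of time and all cells were collected together. The question was how these genes responded to the cytokines and whether their levels went with the level of GLIS3.

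NF-κB is a family of dimeric transcription factors that wait in the cytoplasm, held by IκB proteins. IL-1β binding to its receptor recruits MyD88, the IRAK kinases and TRAF6, which activate the IKK complex. IKK marks IκBα (NFKBIA) for destruction, and dimers such as p50 and RELA enter the nucleus. Among the first genes these dimers transcribe are NFKBIA itself and the ubiquitin editor A20 (TNFAIP3), so that the signal limits its own duration. In fibroblasts this response drives the chemokines, IL-6 and other inflammatory mediators of the activated stroma.

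The promoters of these genes are known as carriers of κB motifs, the short DNA element that NF-κB dimers bind, and the sequences are shown because the results turn on genes that rise together. RefSeq promoter sequences of build GRCh38.p14, from 250 bases before to 50 bases after each start, were found for 8 of the 10 genes by symbol. None was found for IER3 or RELB. A degenerate 10-base form of the κB motif was searched on both strands in the 250 bases before each start, with overlapping matches counted separately. It was present in 9 of the 14 promoters of these 8 genes, against 3498 of 35116 promoters in the whole table (9.96%). Counted by gene, 7 of 8 held a match in at least 1 promoter, against 3221 of 27305 genes (11.8%), and the RELA windows held none. A match is a string of letters in this window and not a measured binding site. The genes were chosen by name for roles in this pathway, so these shares only describe them. Whether the motifs bear on their rise was not tested. Capitals below mark the motif, and each window is written 5′ to 3′ on the strand of its gene.
NFKBIA, chr14:35404750-35404999, minus strand, the 250 bases before the start, with the motif 81 bases before it: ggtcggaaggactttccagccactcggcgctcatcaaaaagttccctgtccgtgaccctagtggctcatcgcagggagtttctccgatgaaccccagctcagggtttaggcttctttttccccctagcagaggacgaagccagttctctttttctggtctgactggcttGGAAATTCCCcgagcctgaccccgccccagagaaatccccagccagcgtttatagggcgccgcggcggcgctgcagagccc
TNFAIP3, chr6:137867172-137867213, plus strand, with motifs 67 and 55 bases before the start: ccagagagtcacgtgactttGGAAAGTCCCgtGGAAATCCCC
BIRC3, chr11:102317234-102317483, plus strand, the 250 bases before the start, with motifs 199 and 135 bases before it: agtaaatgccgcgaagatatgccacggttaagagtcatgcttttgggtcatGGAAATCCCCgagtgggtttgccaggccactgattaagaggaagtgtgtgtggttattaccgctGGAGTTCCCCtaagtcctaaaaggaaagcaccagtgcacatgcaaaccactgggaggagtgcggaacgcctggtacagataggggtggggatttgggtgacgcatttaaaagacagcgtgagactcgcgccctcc
NFKBIZ, chr3:101827757-101827786, plus strand, with the motif 223 bases before the start: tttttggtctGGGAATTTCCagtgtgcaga
TNIP1, chr5:151081057-151081086, minus strand, with the motif 42 bases before an inner start: ccagtctccgGGGACTTTCCcaggggtggg
NFKB1, chr4:102501300-102501329, plus strand, with the motif 49 bases before the start: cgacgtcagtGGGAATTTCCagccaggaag
NFKB2, chr10:102394461-102394490, plus strand, with overlapping motifs 107 and 106 bases before an inner start: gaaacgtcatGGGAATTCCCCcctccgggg
The NFKBIA, TNFAIP3 and BIRC3 windows lay outside annotated exons. By the GENCODE annotation, the TNIP1 and NFKB2 windows overlapped exons of longer transcripts of the same genes, the NFKBIZ window an exon of its neighbour NXPE3 and the NFKB1 window an exon of an antisense gene. BIRC3 carried 2 matches and TNFAIP3 carried 2 matches 12 bases apart. The NFKB2 promoter shown carried a further match 78 bases before its start. Another NFKB2 promoter, not shown, carried matches 176 and 21 bases before its start. Another NFKBIZ promoter, not shown, carried a match 239 bases before its start.

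Library totals ran from 2321990 to 10661004 counts, with a median of 5139646. The TMM scaling factor (edgeR's correction for library composition) ran from 0.681 to 1.84 and was above 1.5 in 2 libraries, H47_KO at 24 h replicate 3 (1.51) and VP64_Ctrl at 0 h replicate 3 (1.84). GLIS3 stood at 2.02, 1.45 and 2.16 CPM (TMM-normalised counts-per-million values) in H47_Ctrl at 0 h and at 0.354, 0.144 and 0.395 in H47_KO. Its mean difference over the 4 times was −1.69 (SE 0.25, adjusted P = 5.71e-05) on the log2 scale, and its H47_KO libraries lay below those of H47_Ctrl at each time, though among single times only 0 h was called (0.0355, against 0.0925, 0.507 and 0.383 later). It stood at 2.65, 1.91 and 2.10 CPM in VP64_Ctrl at 0 h and at 23.3, 27.4 and 31.96 in VP64_A, a mean difference over times of 3.05 (SE 0.12, adjusted P = 5.22e-19). The titles, conditions and genotypes in the sample labels of the CRISPRa arm name the groups the other way round, and the cell line label calls all 48 libraries a GLIS3 knockout, controls included. The groups here follow the sample descriptions, every direction drawn from that arm depends on them, and the GLIS3 level goes with the descriptions. Fibroblast markers were present, with 8 of 8 tested, but they were not level between groups. In H47_KO, 2 of 8 were lower than in H47_Ctrl on the mean of the times, DCN at −1.296 (SE 0.12, adjusted P = 1.01e-08) and COL3A1 at −0.61 (SE 0.16, adjusted P = 0.0226) on the log2 scale. In VP64_A against VP64_Ctrl 4 of 8 were higher and 3 lower, from −0.82 (LUM) to 1.14 (COL1A1). Of 9 markers of leukocytes, epithelium and endothelium only CD68 passed the filter on low counts, and CD3E, EPCAM and LYZ had 0 counts in all libraries. The other 8 of these markers summed to at most 2.75 CPM in any library, unscaled.

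Before the cytokines were added, the genes differed widely in level. Transcripts-per-million values (TPM), which are scaled by transcript length, allow levels to be compared between genes. In H47_Ctrl at 0 h the mean TPM was 47.05 ± 8.58 for NFKBIA (SD, n = 3), 29.98 ± 9.40 for IER3 and 7.33 ± 1.05 for RELA. NFKBIA and IER3 overlapped between libraries, and both lay above all the others. NFKB1 followed at 4.77 TPM. NFKBIZ, TNIP1, TNFAIP3 and RELB lay between 2.22 and 3.03 TPM. Neighbours in that run overlapped between libraries and could not be put in order. BIRC3 at 0.970 and NFKB2 at 0.413 TPM were the lowest. NFKBIA had the highest mean and IER3 the next highest in each of the 4 groups at 0 h, and RELA, the main activating subunit, came next in each.

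At 6 h the order was different. IER3 reached 3128 ± 716 TPM in H47_Ctrl and NFKBIA 450.1 ± 40.9 TPM. TNFAIP3 stood at 129.5, NFKBIZ at 67.05 and NFKB1 at 43.6 TPM. Libraries of NFKBIZ and NFKB1 overlapped in this group. BIRC3, TNIP1, RELB and RELA lay within 14.8 to 16.3 TPM and overlapped with each other. NFKB2 was the lowest at 3.70 TPM. IER3 was highest and NFKBIA next in all 4 groups at 6 h, NFKB2 was lowest in all 4, and RELA had moved from the place after them to between the 7th and the 9th.

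All 10 genes rose with TGFβ and IL-1β. At 6 h and at 12 h each of them was higher than at 0 h in H47_Ctrl, H47_KO, VP64_Ctrl and VP64_A, and the 3 libraries of the later time lay above the 3 libraries of 0 h without overlap in all of these comparisons. Calls are adjusted P under 0.05 in edgeR's quasi-likelihood test, adjusted by the Benjamini-Hochberg method over all genes tested. Of all genes tested, 10.3% in H47_Ctrl, 13.2% in H47_KO, 16.2% in VP64_Ctrl and 11.4% in VP64_A were called higher at 6 h. At 12 h these shares were 11.3%, 14.4%, 15.3% and 12.6% in the same order. The median log2 change of the 10 genes at 6 h was 3.32 in H47_Ctrl, 3.61 in H47_KO, 3.63 in VP64_Ctrl and 4.26 in VP64_A, where the median of all genes lay between −0.10 and −0.01. Within each group the later times share the same 3 libraries of 0 h. Nothing in the labels says that replicates came from separate cultures, so P values measure the spread between these libraries, which may be technical.

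**Figure D1:**
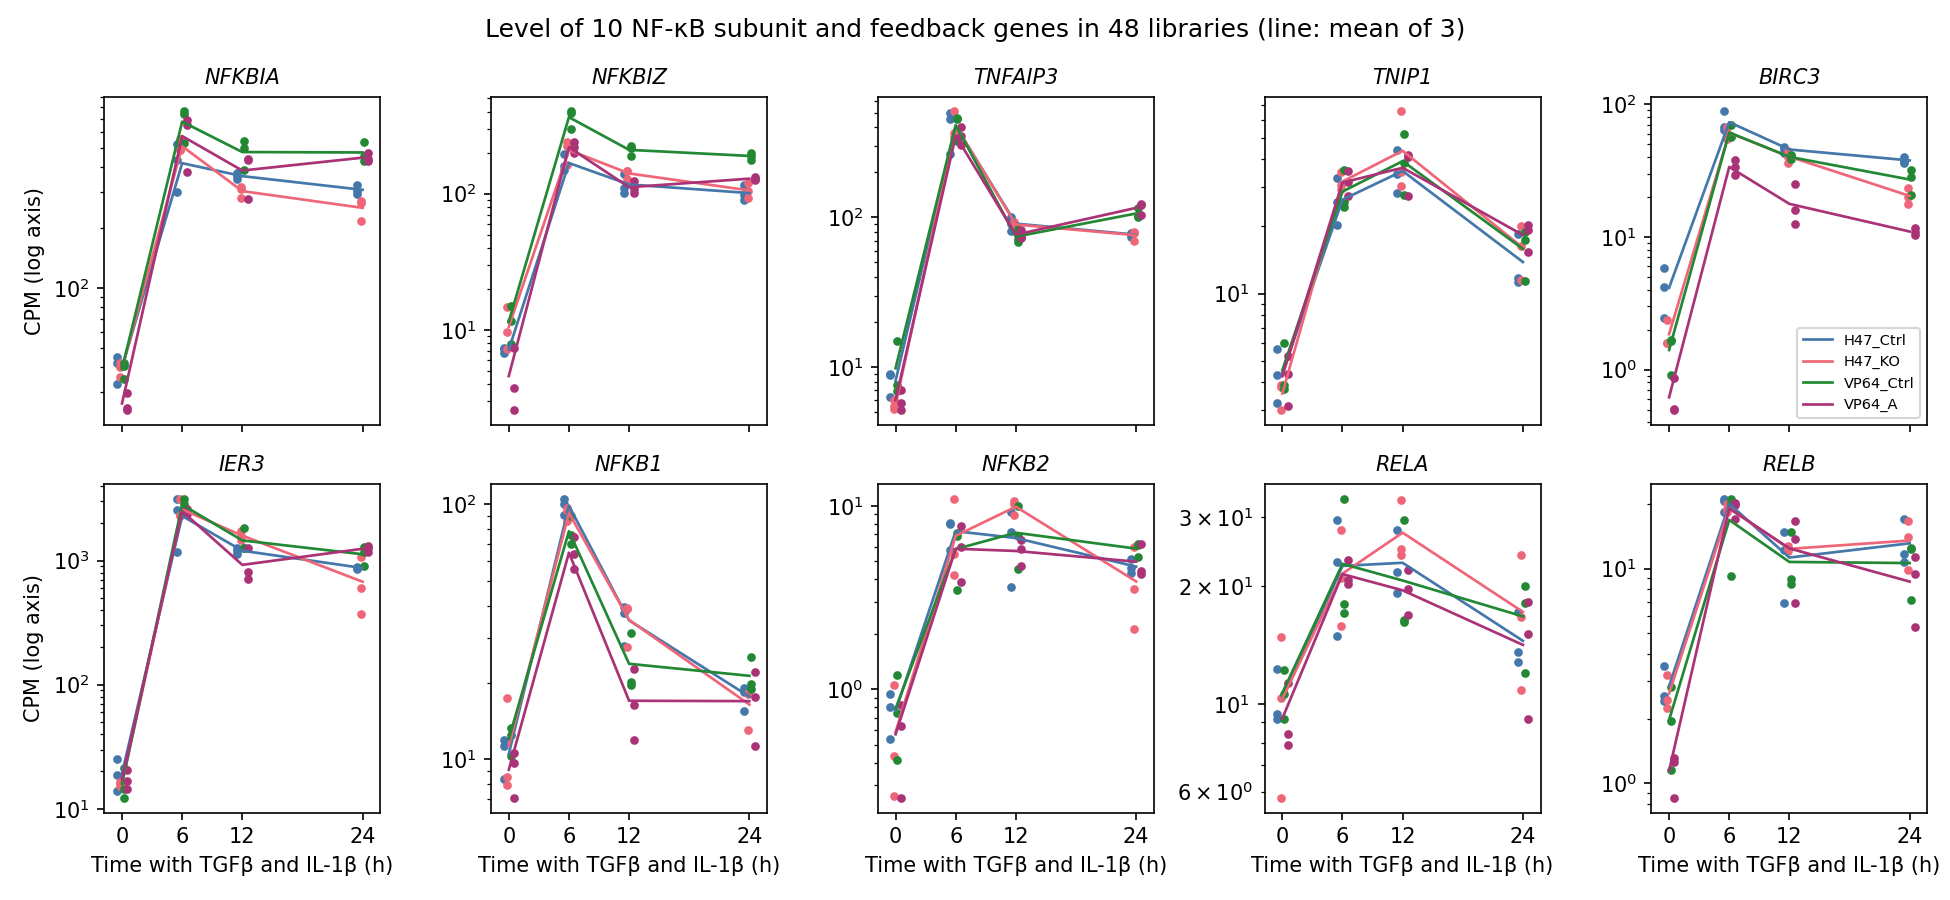
Level of each of the 10 genes in CPM (log axis) against hours of TGFβ and IL-1β, with a point for each library and a line through the mean of the 3 libraries of each group. Every gene is higher at 6 h than at 0 h in all 4 groups, and NFKB1 and TNFAIP3 fall furthest by 24 h in H47_Ctrl, to 17.9% and 18.8% of the 6 h mean.

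Among the IκB family, NFKBIA (IκBα, chr14:35401079-35404749) is the inhibitor that holds NF-κB dimers in the cytoplasm and is resynthesised after each pulse. In H47_Ctrl its libraries held 44.8, 32.8 and 42.1 CPM at 0 h, 299.6, 437 and 523 at 6 h, 348, 362 and 375 at 12 h and 294, 328 and 305 at 24 h. Every treated library lay above every library of 0 h. The log2 change at 6 h was 3.39 (SE 0.19, adjusted P = 2.04e-15) in H47_Ctrl. It was 3.697 in H47_KO, 4.11 in VP64_Ctrl and 4.44 in VP64_A. Of the 6 h mean of NFKBIA, 73.6% was left at 24 h in H47_Ctrl, 49.1% in H47_KO, 70.1% in VP64_Ctrl and 78.0% in VP64_A. The fall from 6 h to 24 h was called in H47_KO, at −1.02 (SE 0.18, adjusted P = 4.77e-05), and in H47_Ctrl it was −0.44 (SE 0.17, adjusted P = 0.0876). On the TPM scale H47_KO did not fall further than H47_Ctrl. Mean TPM at 6 h and 24 h was 436.1 and 327 in H47_KO and 450.1 and 314.2 in H47_Ctrl. The difference between the falls of the groups was not tested.

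NFKBIZ (IκBζ, chr3:101827991-101861022) is a nuclear IκB protein that binds p50 and is needed for a late set of inflammatory genes. It held 7.43, 6.76 and 7.29 CPM in H47_Ctrl at 0 h, 149, 160.2 and 194 at 6 h, 139, 109.6 and 101 at 12 h and 89.3, 116 and 97.2 at 24 h. The treated libraries were all far above those of 0 h, and 6 h held the highest values. Its log2 change at 6 h was 4.54 (SE 0.22, adjusted P = 3.32e-17) in H47_Ctrl, 4.28 in H47_KO, 5.003 in VP64_Ctrl and 5.66 in VP64_A.

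TNFAIP3 (A20, chr6:137867214-137883314) removes activating ubiquitin chains from signalling proteins such as RIPK1 and TRAF6. Its H47_Ctrl libraries held 6.35, 9.01 and 8.91 CPM at 0 h, 265, 501 and 457 at 6 h, 101, 90.3 and 81.2 at 12 h and 76.9, 78.99 and 73.95 at 24 h. The peak at 6 h stood clear of the later times, which in turn stood clear of 0 h. On the log2 scale its change at 6 h was 5.67 (SE 0.23, adjusted P = 2.60e-19) in H47_Ctrl, 6.19 in H47_KO, 5.44 in VP64_Ctrl and 5.89 in VP64_A. In the CRISPRa arm the 24 h libraries lay above the 12 h libraries, with 71.2, 68.8 and 82.98 CPM at 12 h against 101, 102 and 115 at 24 h in VP64_Ctrl. VP64_A held 82.9, 72.7 and 74.3 CPM at 12 h and 121, 104 and 123 at 24 h. These times did not overlap in either group of that arm, and the step from 12 h to 24 h was not tested.

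TNIP1 (ABIN1, chr5:151029945-151093577) is the ubiquitin-binding partner that brings A20 to its targets. In H47_Ctrl it held 3.24, 5.63 and 4.32 CPM at 0 h, 20.3, 33.04 and 25.8 at 6 h, 34.2, 43.8 and 28.3 at 12 h and 11.8, 11.2 and 18.6 at 24 h. Its log2 change at 6 h was 2.58 (SE 0.29, adjusted P = 3.28e-08) in H47_Ctrl, 3.13 in H47_KO, 2.71 in VP64_Ctrl and 2.86 in VP64_A. Its mean was highest at 12 h in all 4 groups, at 1.34, 1.37, 1.37 and 1.17 times the 6 h mean in H47_Ctrl, H47_KO, VP64_Ctrl and VP64_A, but libraries of 6 h and 12 h overlapped and that step was not tested.

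BIRC3 (cIAP2, chr11:102317484-102339403) is a ubiquitin ligase of the TNF receptor complex that also keeps the noncanonical kinase NIK low. It was scarce at 0 h, with 4.19, 5.79 and 2.43 CPM in H47_Ctrl, and held 67.8, 88.2 and 63.6 at 6 h, 47.8, 43.2 and 45.7 at 12 h and 37.3, 35.99 and 39.7 at 24 h. The times did not overlap, and each later time after 6 h was lower. At 6 h it had risen on the log2 scale by 4.08 (SE 0.21, adjusted P = 7.85e-17) in H47_Ctrl, 4.997 in H47_KO, 5.47 in VP64_Ctrl and 5.64 in VP64_A.

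IER3 (IEX-1, chr6:30743199-30744548) is an immediate early gene that affects cell survival under NF-κB signalling. Its libraries held 25.1, 18.7 and 13.8 CPM at 0 h in H47_Ctrl, 1181, 3107 and 2571 at 6 h, 1270, 1135 and 1194 at 12 h and 880.0, 875 and 855 at 24 h. Replicate 1 at 6 h was the lowest of its time and was still far above 0 h. Its 6 h change exceeded that of every other gene of the list in each of the 4 groups, with 6.87 (SE 0.38, adjusted P = 1.16e-15) in H47_Ctrl, 7.33 in H47_KO, 7.45 in VP64_Ctrl and 7.17 in VP64_A on the log2 scale. The H47_KO libraries of 24 h were spread, at 1058, 596 and 369.8 CPM, and replicate 3, a library with a scaling factor above 1.5, was the lowest.

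Of the subunits, NFKB1 encodes p105, the precursor of p50. It held 8.37, 11.3 and 11.9 CPM in H47_Ctrl at 0 h, 100.2, 90.95 and 105 at 6 h, 39.7, 37.6 and 27.9 at 12 h and 18.5, 15.4 and 19.02 at 24 h. NFKB1 was a brief peak: 6 h stood far above all other times, and 24 h was just above 0 h. The 6 h change on the log2 scale was 3.25 (SE 0.22, adjusted P = 1.47e-13) in H47_Ctrl, 3.01 in H47_KO, 2.71 in VP64_Ctrl and 2.802 in VP64_A.

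NFKB2 encodes p100, the precursor of p52 and itself an inhibitor of RELB. Its counts at 0 h were 7, 5 and 2 in the H47_Ctrl libraries, few enough that counting error is large. At 6 h the same group held 5.75, 7.96 and 8.10 CPM, a log2 change of 3.14 (SE 0.47, adjusted P = 5.72e-06). RELB, the partner of p52, held 2.56, 2.42 and 3.51 CPM at 0 h and 20.6, 21.1 and 18.4 at 6 h in H47_Ctrl, a log2 change of 2.85 (SE 0.28, adjusted P = 8.60e-10). Both were low at 0 h and clearly above it at 6 h. The change of NFKB2 was 3.52, 3.03 and 3.43 in H47_KO, VP64_Ctrl and VP64_A, and that of RELB 2.87, 3.15 and 4.08. Without H47_KO 0 h replicate 1 the change of NFKB2 in H47_KO was 4.17.

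RELA (p65, chr11:65653599-65663090) carries the activation domain of the classical dimer and rose least. Its H47_Ctrl libraries held 12.3, 9.18 and 9.45 CPM at 0 h, 14.9, 29.4 and 23.1 at 6 h, 21.7, 27.8 and 19.2 at 12 h and 17.1, 13.6 and 12.8 at 24 h. The lowest 6 h library lay only a little above the highest of 0 h. Its log2 change at 6 h was 1.099 (SE 0.29, adjusted P = 0.00731) in H47_Ctrl, 1.05 (SE 0.31, adjusted P = 0.0114) in H47_KO, 1.100 (SE 0.27, adjusted P = 0.00226) in VP64_Ctrl and 1.22 (SE 0.27, adjusted P = 0.00125) in VP64_A. The call of RELA at 6 h was lost without H47_Ctrl 6 h replicate 2 (adjusted P = 0.0756), H47_KO 0 h replicate 3 (0.0795), H47_KO 6 h replicate 2 (0.0761) or VP64_Ctrl 6 h replicate 2 (0.0753), and that at 12 h without VP64_Ctrl 12 h replicate 2 (0.134). On log2(TPM + 1) with limma the RELA change at 6 h was 0.93, 0.59, 0.26 and 0.79 in H47_Ctrl, H47_KO, VP64_Ctrl and VP64_A, with adjusted P of 0.0151, 0.0662, 0.522 and 0.132.

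**Figure D2:**
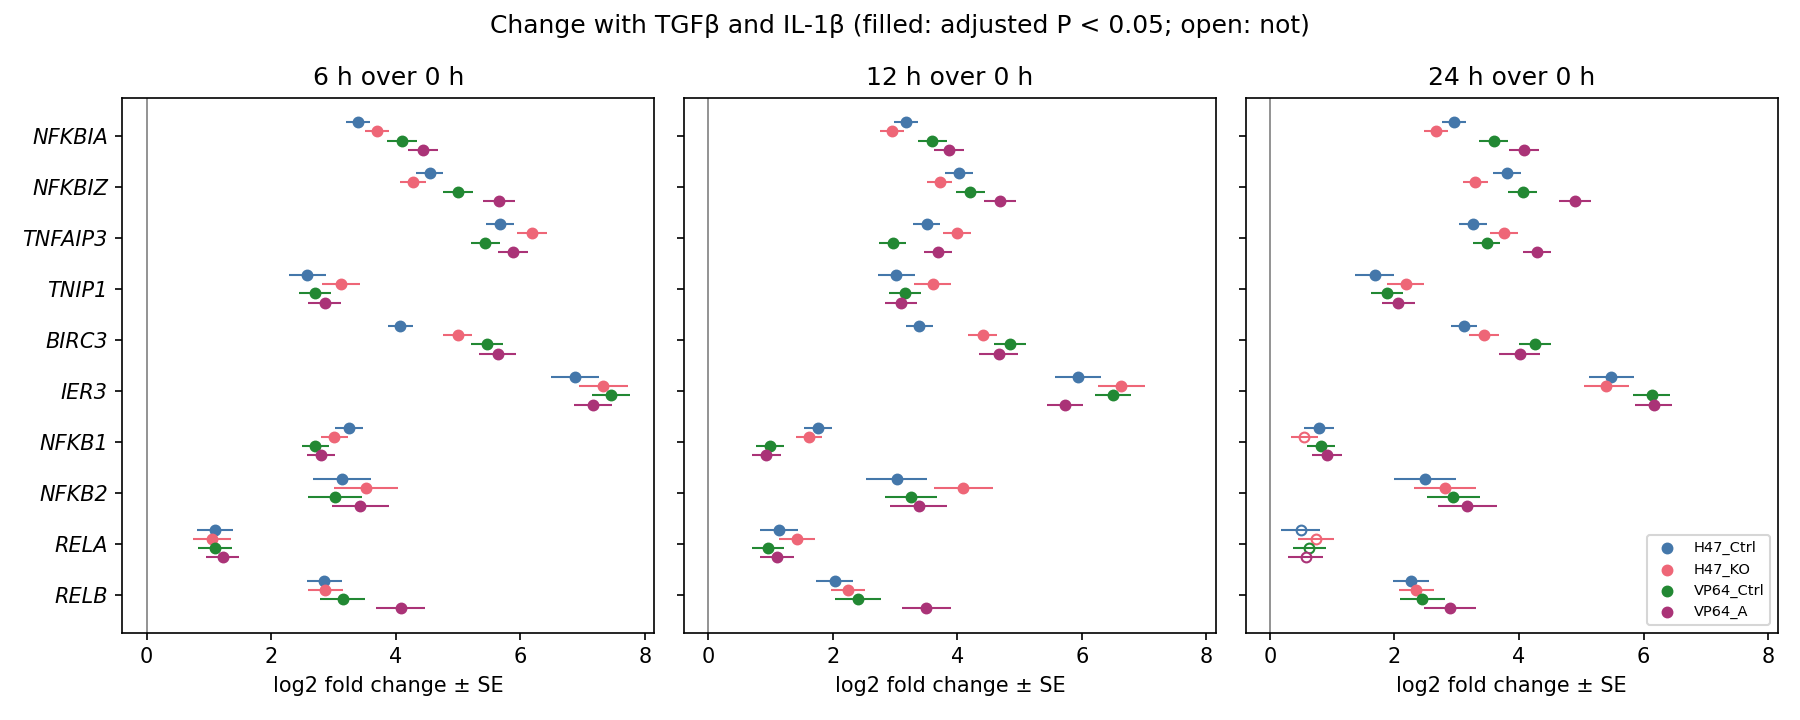
Log2 change of each gene at 6, 12 and 24 h over 0 h in the 4 groups, with bars of 1 standard error. IER3 has the largest change at 6 h and RELA the smallest in each group, and all 10 genes lie above 0 at 6 h and 12 h.

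By 24 h the genes had come down to different degrees. At that time 9 genes of the list were still above 0 h in H47_Ctrl, 8 in H47_KO, 9 in VP64_Ctrl and 9 in VP64_A, where 6.53%, 9.07%, 10.4% and 9% of all genes tested were called higher. RELA was not called at 24 h in any group, with adjusted P of 0.399, 0.0818, 0.106 and 0.193 in the same order, although on log2(TPM + 1) it passed in H47_KO (adjusted P = 0.0265 with limma). RELA also passed at 24 h in H47_KO without 0 h replicate 1 (adjusted P = 0.0222) or 24 h replicate 3 (0.0155), and in VP64_Ctrl without 24 h replicate 3 (0.0424). NFKB1 at 24 h was 0.79 (SE 0.24, adjusted P = 0.0276) in H47_Ctrl, 0.83 (SE 0.22, adjusted P = 0.00931) in VP64_Ctrl, 0.91 (SE 0.24, adjusted P = 0.00789) in VP64_A and 0.55 (SE 0.22, adjusted P = 0.0844) in H47_KO. Single libraries decided the NFKB1 call. In H47_KO it was gained without 0 h replicate 3 (adjusted P = 8.33e-04) or 24 h replicate 2 (0.0417). In H47_Ctrl it was lost without replicate 1 (adjusted P = 0.179) or 2 (0.055) of 0 h or replicate 1 (0.103) or 3 (0.11) of 24 h. In VP64_Ctrl it was lost without replicate 1 of 0 h (0.0612) or of 24 h (0.0849), and in VP64_A without replicate 3 of 0 h (0.0594) or of 24 h (0.14). At 12 h its call in VP64_A was lost without 12 h replicate 2 (0.119).

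Set against 6 h, the 24 h level was lower for 6 genes of the list in H47_Ctrl, 7 in H47_KO, 6 in VP64_Ctrl and 7 in VP64_A, and higher for none. Of all genes tested, 7.74%, 12.1%, 9.45% and 6.72% were called lower in these comparisons. NFKB1, TNFAIP3, IER3, BIRC3, NFKBIZ and TNIP1 fell in every group. In H47_Ctrl the falls were −2.46 for NFKB1, −2.41 for TNFAIP3, −1.39 for IER3, −0.95 for BIRC3, −0.90 for TNIP1 and −0.74 for NFKBIZ on the log2 scale. NFKB1 and TNFAIP3 kept the least of the list in H47_Ctrl, H47_KO and VP64_Ctrl, while in VP64_A NFKB1 kept the least and BIRC3 (32.6%) came just below TNFAIP3. At 24 h NFKB1 kept 17.9%, 17.8%, 27.1% and 26.2% of its 6 h mean in H47_Ctrl, H47_KO, VP64_Ctrl and VP64_A, and TNFAIP3 18.8%, 18.6%, 25.7% and 32.9%. NFKB2 kept 64.1%, 56.4%, 101% and 85.0%, and its fall was called in none of the groups. NFKBIA also fell in H47_KO, and RELB in VP64_A, at −1.19 (SE 0.33, adjusted P = 0.0141). The fall of RELB was lost without VP64_A 24 h replicate 3 (adjusted P = 0.141), and in H47_Ctrl and H47_KO it was gained without replicate 1 of 24 h (0.0478 and 0.0484). That of NFKBIA was gained in H47_Ctrl and VP64_Ctrl without replicate 1 of 6 h (0.00582 and 0.0343).

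TNIP1 was the least secure of these falls. In H47_Ctrl the call was lost without 6 h replicate 2 (adjusted P = 0.122) or 24 h replicate 1 (0.12) or 2 (0.068). In VP64_Ctrl it was lost without replicate 2 of 6 h (0.114) or of 24 h (0.0537), and in VP64_A without 6 h replicate 1 (0.0868) or 3 (0.0512) or 24 h replicate 3 (0.143).

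The second question was whether loss of GLIS3 changed the level of these genes. In H47_KO against H47_Ctrl, BIRC3 was the exception among 10 genes that otherwise gave no call. It was lower at 24 h and on the mean of the 4 times. Of all genes tested, 0.301% were called at 0 h, 0.319% at 6 h, 0.0821% at 12 h, 0.21% at 24 h and 3.07% on the mean of the times. At 0, 6 and 12 h edgeR called 0 of the 10 genes, where 3, 0 and 0 had an unadjusted P under 0.05, DESeq2 called 1, 0 and 0 and limma-voom 0, 0 and 0. The median difference of the 10 genes on the mean of the times was −0.01 on the log2 scale, and that of all genes was −0.01.

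BIRC3 held 1.59, 1.59 and 2.37 CPM in H47_KO at 0 h, against 4.19, 5.79 and 2.43 in H47_Ctrl. At 24 h it held 23.4, 17.6 and 20.01 CPM against 37.3, 35.99 and 39.7. At both times all 3 H47_KO libraries lay below all 3 of H47_Ctrl. At 6 h the values were 54.5, 66.9 and 61.0 CPM in H47_KO, and at 12 h 44.5, 36.2 and 39.9, which overlapped with H47_Ctrl. The log2 difference was −1.19 (SE 0.29, adjusted P = 0.0552) at 0 h, −0.27 (SE 0.17, adjusted P = 0.563) at 6 h, −0.18 (SE 0.17, adjusted P = 0.855) at 12 h and −0.88 (SE 0.18, adjusted P = 0.0218) at 24 h. On the mean of the times it was −0.63 (SE 0.10, adjusted P = 2.06e-04), and it was called in all 24 fits that left out 1 library of the arm.

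The call of BIRC3 at single times was less stable. At 24 h it was lost without H47_Ctrl 24 h replicate 1 (adjusted P = 0.109), 2 (0.0925) or 3 (0.131) or H47_KO 24 h replicate 2 (0.116) or 3 (0.0905). At 0 h it was gained without replicate 3 of H47_Ctrl (0.0179) or of H47_KO (0.0428). On log2(TPM + 1) with limma the mean difference of BIRC3 was −0.44 with an adjusted P of 0.122, so the sign was kept and the call was not. Which times overlapped also depended on the scale. In TPM the highest H47_KO library lay below the lowest of H47_Ctrl at 6 h (11.01 against 11.8) and 12 h (7.92 against 8.48). The same held at 24 h (6.46 against 6.58), while 0 h overlapped. The median of all genes on log2(TPM + 1) was itself −0.318 at 6 h and 0.299 at 24 h.

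The remaining 9 genes gave no call between H47_KO and H47_Ctrl. NFKBIZ was 0.31 (SE 0.10, adjusted P = 0.0785) on the mean of the times, with overlapping libraries at each time, and passed without H47_KO 0 h replicate 1 (adjusted P = 0.0347) or with no filter on low counts (0.0459). The other 8 mean differences were −0.07 for NFKBIA, −0.14 for TNFAIP3, 0.13 for TNIP1, −0.02 for IER3, −0.01 for NFKB1, −0.07 for NFKB2, 0.09 for RELA and −0.00 for RELB, and none of them passed. Those of RELA, RELB, IER3 and NFKB2 lay so near 0 that their sign changed under some of the alternatives.

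In the CRISPRa arm, where the GLIS3 level was higher in VP64_A, NFKBIZ and BIRC3 were lower than in VP64_Ctrl. Of the 10 genes edgeR called 1 at 0 h (NFKBIZ), 2 at 6 h and 2 at 12 h (NFKBIZ and BIRC3) and 1 at 24 h (BIRC3), all lower. On the mean of the times it called 4, all lower. The share called among all genes tested was 9.41% at 0 h, 3.76% at 6 h, 4.31% at 12 h, 4.13% at 24 h and 18.4% on the mean of the times, in either direction. The median difference of the 10 genes on the mean of the times was −0.25 on the log2 scale, and that of all genes was −0.00. CD68, a marker shared with leukocytes, differed in this arm as well, with a log2 mean difference of −0.76 (SE 0.11, adjusted P = 1.53e-06), and was 0.68 (SE 0.10, adjusted P = 4.47e-05) in H47_KO against H47_Ctrl. The 9 markers of that list summed to 18.7 to 34.1 CPM (unscaled) in H47_Ctrl, 22.3 to 64.5 in H47_KO, 22 to 80.7 in VP64_Ctrl and 17.1 to 44.5 in VP64_A, nearly all of it CD68. In both arms fibroblast markers differed too, as given above. The part of these markers in the results was not tested.

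BIRC3 held 0.859, 0.503 and 0.494 CPM in VP64_A at 0 h (counts of 10, 4 and 3) and 0.910, 1.66 and 1.65 in VP64_Ctrl. At 6 h it held 38.1, 29.2 and 33.6 CPM in VP64_A and 69.6, 57.8 and 56.2 in VP64_Ctrl. All 3 VP64_A libraries lay below all 3 of VP64_Ctrl at both times. At 12 h the values were 24.9, 15.8 and 12.4 CPM against 41.4, 38.5 and 40.4, and at 24 h 10.97, 11.7 and 10.3 against 28.3, 32.1 and 20.8, again without overlap. The log2 difference was −1.04 (SE 0.41, adjusted P = 0.106) at 0 h, −0.87 (SE 0.19, adjusted P = 0.0049) at 6 h, −1.22 (SE 0.21, adjusted P = 1.49e-04) at 12 h and −1.29 (SE 0.22, adjusted P = 1.72e-04) at 24 h. On the mean of the times it was −1.11 (SE 0.13, adjusted P = 1.36e-07) and was called in all 24 fits that left out 1 library. The call at 6 h was lost without VP64_A 6 h replicate 2 (adjusted P = 0.0531) or VP64_Ctrl 6 h replicate 1 (0.053).

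NFKBIZ held 2.58, 3.77 and 7.41 CPM in VP64_A at 0 h and 7.86, 11.7 and 14.97 in VP64_Ctrl. At 6 h it held 199, 239 and 219 CPM in VP64_A and 297, 401 and 394 in VP64_Ctrl. VP64_A was lower in every library at both times. At 12 h the values were 109, 101 and 124 CPM against 216, 190.2 and 223, and at 24 h 132, 126 and 128 against 200.2, 189.9 and 177, also without overlap. The log2 difference was −1.39 (SE 0.26, adjusted P = 4.50e-04) at 0 h, −0.73 (SE 0.20, adjusted P = 0.0278) at 6 h, −0.91 (SE 0.20, adjusted P = 0.00392) at 12 h and −0.55 (SE 0.20, adjusted P = 0.137) at 24 h. On the mean of the times it was −0.90 (SE 0.11, adjusted P = 1.11e-07) and was called in all 24 fits that left out 1 library. The call at 6 h was lost without VP64_A 6 h replicate 1 (adjusted P = 0.113), 2 (0.0564) or 3 (0.0951) or VP64_Ctrl 6 h replicate 2 (0.129) or 3 (0.121). NFKBIZ in the CRISPRko arm held 7.25, 9.66 and 14.7 CPM at 0 h, 225, 239 and 163 at 6 h, 128, 146 and 148 at 12 h and 119.9, 104 and 92.8 at 24 h in H47_KO, values that overlapped with those of H47_Ctrl at every time.

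**Figure D3:**
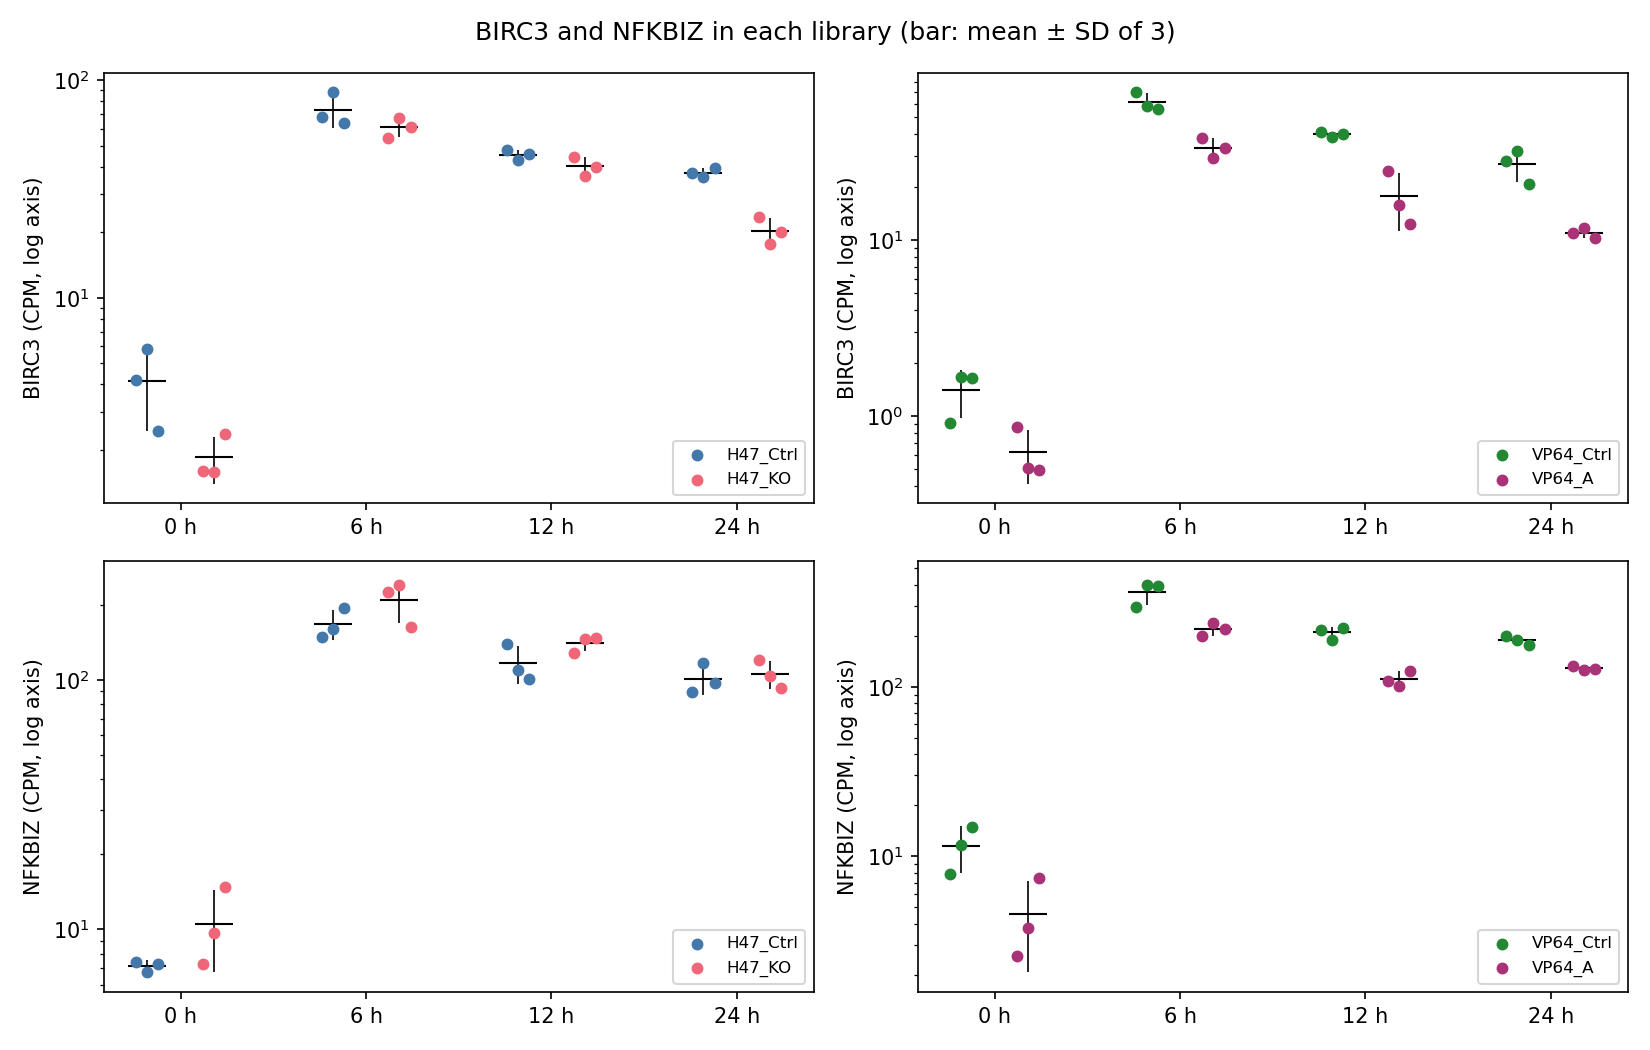
CPM of BIRC3 and NFKBIZ (log axes) in each library of the 4 groups at 0, 6, 12 and 24 h, with a bar at the mean of 3 libraries. VP64_A lies below VP64_Ctrl in every library at every time for both genes, and H47_KO lies below H47_Ctrl without overlap for BIRC3 at 0 h and 24 h.

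The BIRC3 values of both arms stand side by side here, since the level of GLIS3 was lower than control in H47_KO and higher than control in VP64_A. BIRC3 was lower than control on the mean of the times in both, at −0.63 for H47_KO and −1.11 for VP64_A on the log2 scale. The control groups themselves, which carry different Cas9 proteins, held 4.14 ± 1.68 CPM in H47_Ctrl and 1.41 ± 0.428 in VP64_Ctrl at 0 h (mean ± SD, n = 3). At 6, 12 and 24 h their means were 73.2, 45.6 and 37.7 CPM in H47_Ctrl and 61.2, 40.1 and 27.1 in VP64_Ctrl. CPM was scaled in each arm on its own, so values of the 2 arms are not strictly on one scale. NFKBIZ had opposite signs in the arms, at 0.31 and −0.90, of which the first did not pass. The difference between the arms was not tested.

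NFKB1 and NFKBIA were the other genes called on the mean of the times in VP64_A against VP64_Ctrl. NFKB1 was −0.35 (SE 0.11, adjusted P = 0.0282) and NFKBIA −0.30 (SE 0.11, adjusted P = 0.0424). At single times neither was called, and the only time without overlap for NFKBIA was 0 h, with 24.4, 29.8 and 24.9 CPM in VP64_A against 40.5, 42.1 and 35.04 in VP64_Ctrl, a log2 difference of −0.58 (SE 0.22, adjusted P = 0.0958). The mean call of NFKB1 was kept in 18 of 24 fits that left out 1 library, with adjusted P up to 0.0754, and that of NFKBIA in 9 of 24, with adjusted P up to 0.0791. The libraries whose loss ended a call came from both groups, and for NFKBIA from all 4 times. Without VP64_Ctrl 12 h replicate 2 the NFKB1 value was 0.0754, and without VP64_A 12 h replicate 2 the NFKBIA value was 0.0791, the highest of each.

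TNFAIP3 and IER3 had differences at single times that depended on a library. TNFAIP3 was −0.68 (SE 0.24, adjusted P = 0.0655) at 0 h, with overlapping libraries, and passed without replicate 1 (adjusted P = 0.0248) or 2 (0.0331) of VP64_Ctrl. IER3 was −0.66 (SE 0.23, adjusted P = 0.119) at 12 h and passed without VP64_A 12 h replicate 1 (0.0201). On the mean of the times the differences that did not pass were −0.19 (SE 0.10, adjusted P = 0.222) for TNFAIP3, −0.14 (SE 0.12, adjusted P = 0.455) for IER3 and 0.04 (SE 0.12, adjusted P = 0.871) for TNIP1. The sign of TNIP1 changed on the TPM scale. Those of the subunits were −0.20 (SE 0.18, adjusted P = 0.483) for RELB, −0.29 (SE 0.21, adjusted P = 0.381) for NFKB2 and −0.17 (SE 0.13, adjusted P = 0.444) for RELA.

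**Figure D4:**
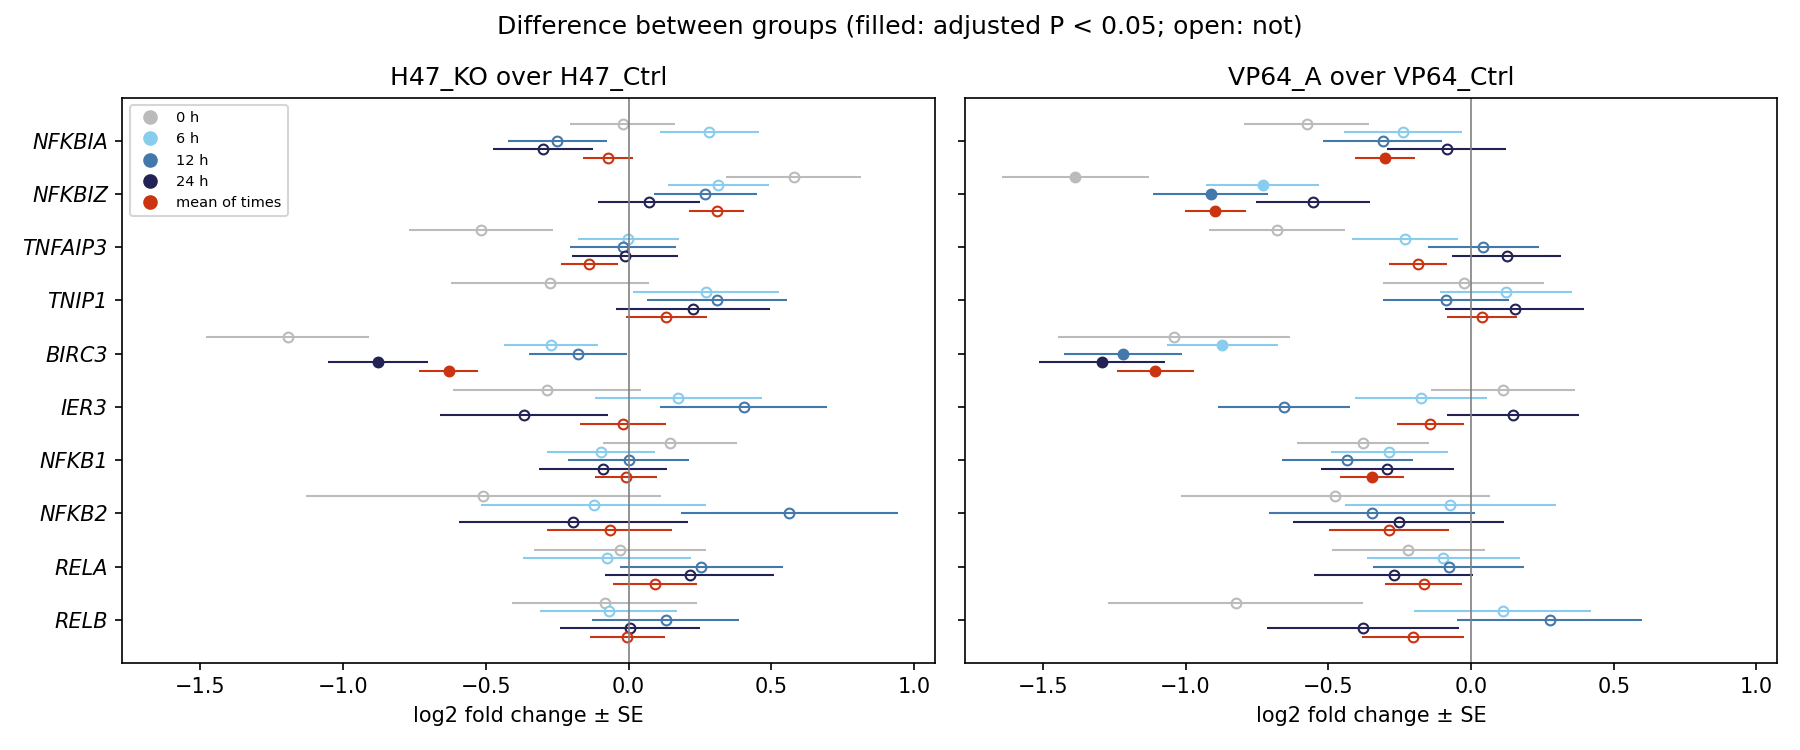
Log2 difference of each gene between H47_KO and H47_Ctrl and between VP64_A and VP64_Ctrl at 0, 6, 12 and 24 h and on the mean of the times, with bars of 1 standard error and called values marked. NFKBIZ and BIRC3 lie below 0 at every time in the CRISPRa arm, and BIRC3 also in the CRISPRko arm. The mean CPM of NFKBIA, NFKB1 and RELA was also lower in VP64_A than in VP64_Ctrl at each time.

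The response itself was also compared between groups, as the difference at 6, 12 or 24 h minus the difference at 0 h. In the CRISPRko arm 0.00912% of all genes tested were called at 6 h, 0% at 12 h and 0% at 24 h. In the CRISPRa arm the shares were 0.0911%, 0.264% and 0.209%. EdgeR called 0 of 30 such tests of the 10 genes in the CRISPRko arm, of which 2 had an unadjusted P under 0.05, and DESeq2 and limma-voom called 0 and 0. It called 0 of 30 in the CRISPRa arm, of which 4 had an unadjusted P under 0.05 (IER3 and TNFAIP3 at 12 h, NFKBIZ and TNFAIP3 at 24 h), and DESeq2 and limma-voom called 0 and 0. For BIRC3 in the CRISPRko arm the change at 6 h was larger in H47_KO by 0.92 (SE 0.33, adjusted P = 0.474) on the log2 scale, a direction that reversed on log2(TPM + 1), at −0.18. For NFKBIZ in the CRISPRa arm it was larger in VP64_A by 0.66 (SE 0.32, adjusted P = 0.528) at 6 h and 0.83 (SE 0.33, adjusted P = 0.57) at 24 h.

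The other genes of the pathway give the setting of these 10. Of 5 other Rel and IκB genes 4 were tested, and 3, 3, 2 and 4 rose at 6 h in H47_Ctrl, H47_KO, VP64_Ctrl and VP64_A, with medians of the list of 1.24, 1.42, 1.36 and 2.30 on the log2 scale. In H47_Ctrl these were REL (c-Rel) at 3.07 (SE 0.42, adjusted P = 1.37e-06), NFKBIE (IκBε) at 1.396 and NFKBIB (IκBβ) at 1.09. Of 11 kinases of the pathway, all tested, 3, 3, 4 and 4 rose, 1 fell in VP64_Ctrl, and the medians were 0.12, 0.26, 0.43 and 0.49. MAP3K8 (TPL2), a kinase that p105 holds inactive, rose by 3.88 (SE 0.61, adjusted P = 1.11e-05) in H47_Ctrl. TAB3 rose by 2.94 and TAB2 by 1.03, both of which are adaptors of the kinase TAK1.

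Of 14 receptor adaptors and TRAF genes 13 were tested, and 6, 5, 5 and 6 rose while 1, 1, 0 and 1 fell, with medians of 0.63, 0.23, 0.14 and 0.67. In H47_Ctrl TRAF1 rose by 7.11 (SE 0.25, adjusted P = 1.01e-20), IRAK2 by 4.797 and BIRC2 (cIAP1), the paralog of BIRC3, by 2.02. Of 11 other ubiquitin editors and brakes, all tested, 5, 5, 5 and 4 rose, with medians of 0.64, 0.40, 0.71 and 0.17. ZC3H12A (Regnase-1), an RNase that degrades cytokine mRNA, rose by 6.36, TNIP2 (ABIN2) by 1.66 and the deubiquitinase CYLD by 1.17. Of 14 inflammatory output genes 13 were tested and all 13 rose in each group. Their medians were 8.79, 9.30, 8.94 and 8.65, or 8.07, 7.49, 8.27 and 8.65 with genes at 0 counts at 0 h set to their bound of 3 counts over the group. The medians of the kinase and adaptor lists were below that of the 10 genes at 6 h in each group, and the median of the output genes was above it.

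With GLIS3 CRISPRko, on the mean of the times, edgeR called 0 of the 52 other genes tested, of which 6 had an unadjusted P under 0.05, and DESeq2 called 3 and limma-voom 2. At single times, in 208 tests of these genes, edgeR called 1, DESeq2 7 and limma-voom 4. The edgeR call was the chemokine CXCL2 at 6 h, named here after its values were seen, which was higher in H47_KO by 1.43 (SE 0.26, adjusted P = 0.00527). At that time all 13 output genes tested had a difference above 0. Their median was 0.43, against −0.03 for all genes, and the share of all genes above 0 was not counted. DESeq2 called 5 of the 13 and limma-voom 3. On log2(TPM + 1) the median of all genes for H47_KO over H47_Ctrl at 6 h was −0.318. The output genes were not tested on that scale. In VP64_A against VP64_Ctrl, on the mean of the times, the kinases IKBKE at −0.47 (SE 0.11, adjusted P = 0.00199) and MAP3K8 at −0.65 (SE 0.22, adjusted P = 0.0321) were lower. MAP3K14, which encodes NIK, was higher at 1.00 (SE 0.30, adjusted P = 0.0177). RIPK1 was lower at −0.46 (SE 0.16, adjusted P = 0.0451), and so were TNIP3 at −2.39 (SE 0.43, adjusted P = 1.07e-04) and TNIP2 at −0.36 (SE 0.11, adjusted P = 0.0194), both of the TNIP family. Of the output genes, PTGS2 (COX-2) was higher at 2.47 (SE 0.14, adjusted P = 4.62e-15) and TNFAIP6 (TSG-6) and CCL2 were lower at −1.24 (SE 0.11, adjusted P = 1.47e-10) and −1.08 (SE 0.14, adjusted P = 2.62e-07).

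The patterns of the 10 genes over the 16 conditions were compared by Pearson's r of their mean log2 CPM, as a description over conditions that share cells and control libraries. All 10 genes rose from 0 h, so a gene that shares this step can reach a high r. How many genes did so was not counted. Within the list NFKBIA and NFKBIZ were most alike, with r = 0.991, and NFKB1 and NFKB2 least, with r = 0.708. NFKB1 reached at most 0.885 with any other gene of the list. Genes of the list were left out of the likeness rankings that follow, made among 11422 genes. Outside the list, those most like NFKBIA were MT1E (0.986), IL8 (CXCL8, 0.985) and CXCL2 (0.985). Those most like IER3 were IL8 (0.992), IL6 (0.991) and MT1E (0.988), and those most like NFKBIZ were CXCL2 (0.982), IL8 (0.98) and IL1B (0.976). TNFAIP3 was most like CCL2 (0.983), TIFA (0.981) and IRAK2 (0.975). BIRC3 was most like SKIL (0.984), FRMD6 (0.975) and IFNAR1 (0.969), NFKB1 most like ARHGAP31 (0.978), CDC42EP2 (0.975) and CLCF1 (0.973), and TNIP1 most like AMPD3 (0.994), FMNL3 (0.985) and ABL1 (0.982). NFKB2 was most like IL8 (0.982), BTG3 (0.98) and IL1B (0.977), RELA most like FMNL3 (0.979), SLC7A2 (0.972) and SLC7A1 (0.965), and RELB most like SPHK1 (0.972), JUNB (0.964) and CXCL1 (0.957).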

How the data were processed

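The 10 genes and the gene lists were chosen with earlier results of these data known. All 10 and GLIS3 are named with values. From each other list the text names up to 3 genes of lowest adjusted P at 6 h over 0 h in H47_Ctrl and on the mean of the times in the CRISPRa arm, among those called, and for each of the 10 genes the 3 of most similar pattern outside the list.

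mRNA was isolated with beads, and libraries were made with Nextera XT, which does not keep the strand, so reads of overlapping antisense genes cannot be told apart. Reads were trimmed, filtered for ribosomal RNA, aligned to GRCh38 with STAR and quantified with Salmon by the authors. Versions and annotation are not given in the sources used here. The authors deposited 2 tables per gene, estimated counts (6.38% of values not whole, rounded here) and TPM, which the authors scaled by transcript length and library.

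Each arm of 24 libraries was fitted with edgeR 4.0.16 in R 4.3.3 (TMM, filterByExpr with a minimum count of 10, quasi-likelihood test, two-sided) with a term for each condition and no replicate block. CPM uses TMM-scaled totals, and P values were adjusted over 10962 (CRISPRko) and 10980 (CRISPRa) genes. The 10 genes passed the filter in both arms, a filter that a gene can pass through the times at which it is high. No library pair of a condition was identical (48 pairs, lowest chi-square per degree of freedom 3.59). Alternatives were DESeq2 1.42.0, limma 3.58.1 (voom with cyclic loess, and log2(TPM + 1) or log2(TPM + 0.1)), DESeq2 size factors, no filter, only the libraries compared, 1 fit over all libraries, a replicate block and each library left out. The fit was tested on simulated data in which only a small set of genes changed, in H47_KO or VP64_A at 6 h. Real libraries changed far more with time, so the rates are a rough guide. For simulated H47_KO over H47_Ctrl at 6 h, edgeR called 41% of the genes changed by 1 on the log2 scale. Of those changed by 2 it called 87%. For simulated VP64_A over VP64_Ctrl at 6 h these shares were 53% and 88%. The mean of the times was not simulated. A gene without a call can therefore still differ between groups.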

Additional observations from a re-analysis of the deposited data

How the results depend on the processing

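Under every alternative the 10 genes kept the direction of their changes over 0 h, and the called differences between groups kept theirs. The BIRC3 response difference at 6 h in the CRISPRko arm, which was not called, reversed to −0.18 on log2(TPM + 1). On the TPM scale the median of all genes itself moved, between −0.81 (VP64_Ctrl, 6 h over 0 h, pseudocount 0.1) and 0.67 (H47_KO, 24 h over 6 h), and calls were lost; the cause was not tested. The count of calls between H47_KO and H47_Ctrl, summed over 40 tests of the 10 genes at the 4 single times, was 1, and was 2 with DESeq2 or without a filter, 0 with either TPM pseudocount or with only the libraries compared, and 0 to 2 with a library left out. On the mean of the times in that arm the count of genes called was 1, and was 2 without a filter, 0 with either TPM pseudocount and 1 to 2 with a library left out. In the CRISPRa arm there were 6 calls over the single times (4 to 7 with a library left out), from 2 genes, and 4 genes on the mean (2 to 4). The genes lower at 24 h than at 6 h were 6 in H47_Ctrl and 3 with log2(TPM + 0.1), 6 in VP64_Ctrl and 3 with either pseudocount, and 7 in VP64_A and 4 with log2(TPM + 0.1).

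With 1 library left out these counts were 5 to 7 in H47_Ctrl, 7 to 8 in H47_KO, 5 to 7 in VP64_Ctrl and 5 to 7 in VP64_A. An alternative chosen after seeing the data left out the libraries with a scaling factor above 1.5. BIRC3 in H47_KO then passed at 0 h (−1.46, adjusted P = 0.0357, edgeR) and not at 24 h (−0.85, adjusted P = 0.0811). Replicate numbers showed little pairing between the 2 groups of an arm at the same time. Of 24 same-numbered pairs, 3 correlated above 0.1 (−0.0471 to 0.135). Pairing of replicate numbers across times was not examined. With a replicate block the count of genes above 0 h at 24 h in H47_KO was 9 in place of 8, and between groups there were 1 and 6 calls over the single times and 1 and 4 genes on the mean. The motif's narrower form was present in 0.179% of all promoters and 3 of 14 of these genes' promoters. At these depths, BIRC3 and NFKB2 at 0 h rest on few counts. GLIS3 in H47_KO also does, with 1 to 3 counts per library at 0 h and 3 to 5 at 6 h. So do the rises of MAP3K8, TAB3 and REL in H47_Ctrl, whose 0 h libraries together held 8, 12 and 20 counts. MAP3K14 and TNIP3, named for their differences in the CRISPRa arm, were also scarce. They held 18 and 7 counts over the same H47_Ctrl libraries.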
